A study of Homo sapiens with 6 samples.

Results

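The genes described here are the 4 ERBB receptor genes EGFR, ERBB2, ERBB3 and ERBB4, the ERBB2 adaptor gene ERBIN, and the EGF-family ligand genes AREG, EREG, HBEGF, TGFA and NRG1. The rule that picks them lists symbols and sets no threshold on measured values, and all 10 were found among the 58735 genes of the deposited table. The libraries were made from polyA RNA of HEY, a human ovarian cancer line in long use. In 3 libraries the cells overexpressed miR-200a, which belongs to a microRNA family best known for restraining the transition of epithelial cells to a mesenchymal state. In the other 3 the cells carried the empty vector (labelled HEY NC). All were grown in RPMI-1640 with fetal bovine serum. The labels do not say which arm of the microRNA the construct makes, whether either line is 1 clone, or whether replicate libraries stem from separate cultures. The p-values therefore measure the spread between these libraries, which may be technical. All 6 carry batch number 1. In sample order the labelled incubation hours climb by a constant step. They are 48, 49 and 50 in miR-200a 1, 2 and 3. Vector 1, 2 and 3 have 51, 52 and 53. Whether these are real times cannot be told from the labels. Taken as given, the hours and the groups cannot be told apart.

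ERBB receptors are tyrosine kinases that work in pairs. EGFR binds EGF, TGF-alpha, amphiregulin, epiregulin and HB-EGF, ERBB3 and ERBB4 bind neuregulins, and ERBB2 has no known ligand of its own and acts as a partner for the others. The ligands are made as membrane proteins that proteases cut free, and active receptors switch on the RAS/ERK and PI3K/AKT pathways. ERBIN is a LAP scaffold protein of basolateral membranes that binds ERBB2 and damps RAS signalling. In ovarian carcinoma the pathway is known for driving growth and survival.

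The microRNA sequences and their possible matches in these genes are shown first, because a microRNA acts mainly through pairing of its seed (bases 2 to 8) with the 3' UTR of a transcript. The mature sequences of the miR-200 family, from RefSeq (GRCh38.p14), are given 5′ to 3′ with the seed in capitals. They fall into 2 seed groups. The first holds miR-200a-3p and miR-141-3p, and the second holds miR-200b-3p, miR-200c-3p and miR-429.
miR-200a-3p: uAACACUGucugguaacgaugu
miR-141-3p: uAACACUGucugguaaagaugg
miR-200b-3p: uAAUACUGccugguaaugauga
miR-200c-3p: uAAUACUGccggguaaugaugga
miR-429: uAAUACUGucugguaaaaccgu

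For each gene, the longest 3' UTR in the annotation (GENCODE 29, GRCh38, sense strand of the transcript) was searched for CAGTGTT, the complement of the miR-200a-3p seed, and AGTGTTA, the complement of bases 2 to 7 followed by A. Where they overlap they form CAGTGTTA and were counted once. One or both occurred in 4452 of 19145 annotated 3' UTRs (23.3%). They occurred in 3 of the 10 genes, EGFR, ERBB4 and EREG, of which only EGFR was expressed at 1 FPKM or more. EGFR carried 2 matches in its 3' UTR of 6011 bases. They are shown as 22-base windows that end opposite the first base of the microRNA, with the match in capitals. The first lies at chr7:55207091-55207112 (plus strand) and the second, which pairs with the seed and has the A, at chr7:55210066-55210087.
EGFR match 1: cagtcctttgtaaaCAGTGTTt
EGFR match 2: aggttctgttggggCAGTGTTA

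ERBIN had no match to miR-200a-3p, either in its 3' UTR of 4019 bases or in the rest of that transcript. It had 4 matches to the other seed group, found with CAGTATT and AGTATTA, which occur in 21.5% of annotated 3' UTRs. They are shown because ERBIN was the gene of this set that was lower in every miR-200a library than in any vector library. All 4 match bases 2 to 7 followed by A, and they lie at chr5:66080768-66080789, chr5:66080884-66080905, chr5:66081086-66081107 and chr5:66081401-66081422 (plus strand).
ERBIN match 1: tgcacattacattgaAGTATTA
ERBIN match 2: aactttaccaagaggAGTATTA
ERBIN match 3: taactaactttagtaAGTATTA
ERBIN match 4: agaaccaaacttttaAGTATTA
These windows are letters found in an annotated transcript, not measured binding sites. Matches to the second seed group, which does not hold miR-200a-3p, also stood in the 3' UTR of EGFR (2), ERBB4 (3), EREG (1) and NRG1 (3). Of these genes EGFR and NRG1 had higher means with miR-200a, and ERBB4 and EREG lower ones on few reads. Whether the level of ERBIN depends on such matches was not tested. ERBB2, ERBB3, HBEGF, TGFA and AREG had no match to either seed group in the 3' UTR.

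The deposited values are FPKM (fragments per kilobase of gene, scaled to library size). Multiplied by gene length they gave whole reads within 0.001 for 100% of the nonzero values, with 15849592 to 21003858 reads per library. The precursor gene MIR200A had 5, 4 and 11 reads with miR-200a and none in any vector library, where a count of 0 allows up to 3 reads in each library. PolyA libraries do not capture mature microRNAs. miR-200a 2 and vector 1 stood apart from their groups. For miR-200a 2 the chi-square per degree of freedom was 19.6 and 21.9 against miR-200a 1 and 3, but 6.74 and 7.95 against vector 2 and 3. For vector 1 it was 19.97 and 15.2 against vector 2 and 3, which differed from each other by 4.61. Genes with at least 1 FPKM in at least 3 libraries were tested with limma on log2(FPKM + 1), and 49 of 12231 passed an adjusted p of 0.05 (35 higher, 14 lower). Without miR-200a 2 the number was 225, and without any other single library it was 8 or 9. Of 8 markers of ovarian cancer cells 5 were tested and none passed. KRT7 averaged 183 FPKM in miR-200a and 132 FPKM in vector libraries without overlap (limma adjusted p = 0.179). Its limma adjusted p was 0.0438 without miR-200a 2 and 0.3095 without vector 1. KRT18 averaged 121 FPKM in miR-200a and 97.7 FPKM in vector libraries, also without overlap. Of all tested genes 8.29% were higher without overlap. The groups overlapped for PAX8 (37.6 FPKM in miR-200a and 31.5 FPKM in vector libraries), KRT8 (113 FPKM in miR-200a and 103 FPKM in vector libraries) and VIM (829 FPKM in miR-200a and 879 FPKM in vector libraries). WT1 averaged 0.957 FPKM in miR-200a and 0.951 FPKM in vector libraries, with EPCAM under 0.5 FPKM in every library and MUC16 listed at 0. Of 10 markers of other cell types, CDH5 alone passed the filter (47.0 FPKM in miR-200a and 38.0 FPKM in vector libraries), and 3 (CD3E, MS4A1 and HBB) were listed at 0. The summed level of these 10 was 40.3 to 51.9 FPKM in miR-200a libraries and 35.6 to 43.0 FPKM in vector libraries, nearly all of it CDH5.

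Among the receptors, HEY cells expressed EGFR, with ERBB2 far below it, and almost no ERBB3 or ERBB4. TGFA was the leading ligand gene, followed by HBEGF, with NRG1 and AREG under 1 FPKM. ERBIN lay between EGFR and TGFA. None of the 5 genes that could be tested (EGFR, ERBB2, ERBIN, HBEGF and TGFA) passed the threshold for a difference between miR-200a and vector, where 0.401% of all tested genes did (0.286% higher and 0.114% lower). The count was 0 with limma and 0 with voom on recovered reads, and 2 of the 5 had an unadjusted p under 0.05, as did 13.3% of all tested genes. In bulk libraries, fewer expressing cells and less RNA per cell cannot be told apart. HBEGF was higher and ERBIN lower in every miR-200a library than in any vector library, 2 of the 5, where 19.0% of all tested genes had groups that did not overlap.

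**Figure D1:**
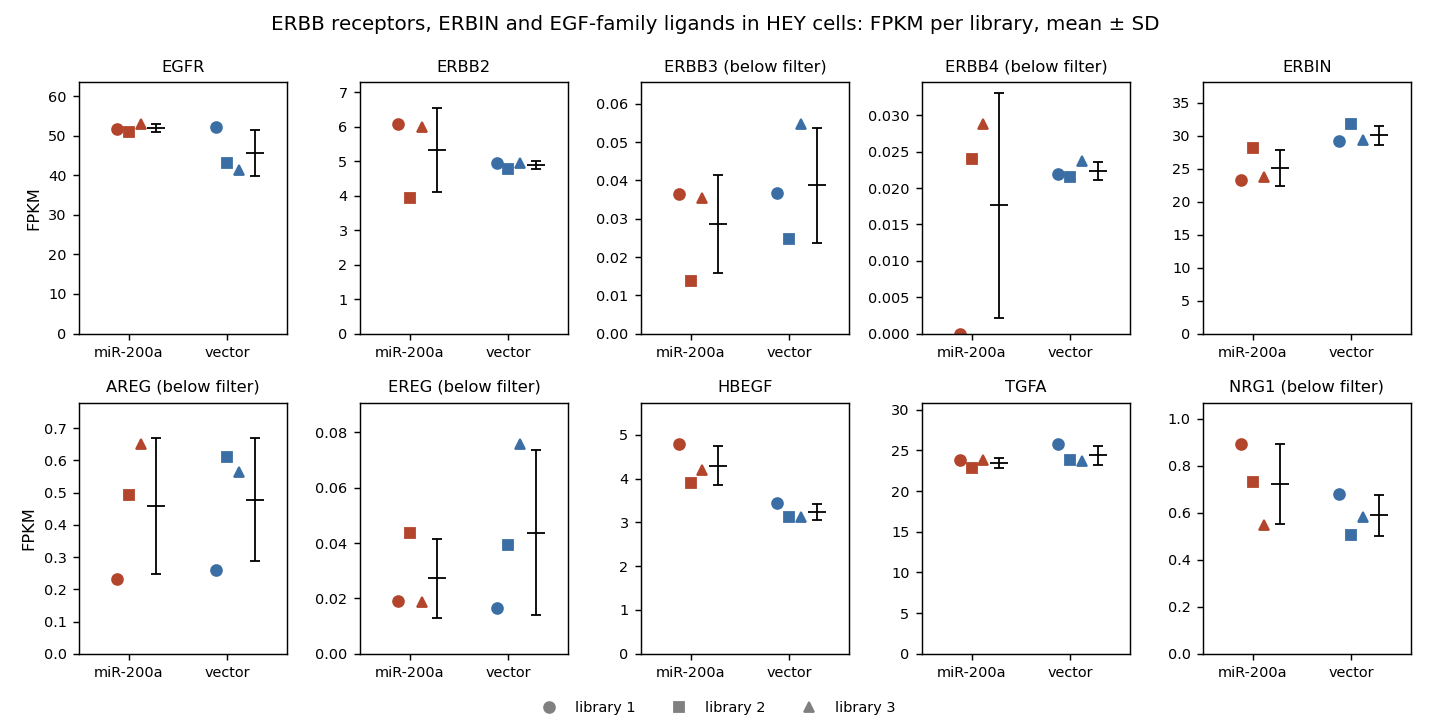
FPKM (y axis, linear, from 0) of the 10 genes in each miR-200a and vector library, with the library number as symbol and the group mean ± SD in black (n = 3 each). The HBEGF and ERBIN groups do not overlap, and miR-200a 2 lies apart from libraries 1 and 3 for ERBB2 and ERBIN.

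EGFR (ENSG00000146648, chromosome 7, 55019021 to 55211628, GRCh38) had 51.7, 50.9 and 52.9 FPKM in miR-200a libraries 1 to 3, against 52.2, 43.1 and 41.4 FPKM in vector libraries 1 to 3. The miR-200a libraries were close to each other, and vector 1 lay within their range while vector 2 and 3 lay below it. The means were 51.8 ± 1.01 FPKM with miR-200a and 45.5 ± 5.78 FPKM with the vector (SD, n = 3 each). The log2 difference was 0.19 (SE 0.10, 95% interval -0.04 to 0.42, limma adjusted p = 0.435). Without vector 1 it was 0.29 (95% interval 0.13 to 0.45, unadjusted p = 0.00483, limma adjusted p = 0.261) and the groups did not overlap, and without vector 3 it was 0.13 (limma adjusted p = 0.673). EGFR ranked 751st of the 12231 tested genes by its mean level. An antisense RNA gene inside EGFR, EGFR-AS1, had at most 0.781 FPKM, and the sources used here do not say whether counting used strand.

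ERBB2 (ENSG00000141736, chromosome 17, 39687914 to 39730426), the receptor without its own ligand, had 6.07, 3.93 and 5.98 FPKM in miR-200a libraries 1 to 3. The vector libraries had 4.96, 4.76 and 4.93 FPKM. Thus miR-200a 1 and 3 lay above all vector libraries and miR-200a 2 below all of them. The log2 difference over all 6 was 0.09 (SE 0.14, 95% interval -0.25 to 0.42, limma adjusted p = 0.794). Without miR-200a 2 it was 0.26 (95% interval 0.11 to 0.40, limma adjusted p = 0.0716). Without miR-200a 1 it was -0.0046 (limma adjusted p = 0.9986). ERBB2 is rich in G and C (57.5% of its longest transcript), and the level of GC-rich genes moved with the groups, as given below. ERBB2 overlaps MIEN1 and PGAP3 on the opposite strand, whose highest levels were 5.47 and 1.57 FPKM, so its reads and theirs may not be fully separated.

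ERBB3, the neuregulin receptor with little kinase activity, was seen in 6, 2 and 6 reads with miR-200a and in 7, 4 and 8 reads with the vector. The 14 reads with miR-200a had a 95% exact Poisson interval of 7.65 to 23.5, and the 19 reads with the vector one of 11.4 to 29.7. ERBB4 (ENSG00000178568), the other neuregulin receptor, had 0, 5 and 7 reads with miR-200a and 6, 5 and 5 with the vector. Its total of 12 reads with miR-200a had an interval of 6.20 to 20.96, and that of 16 with the vector one of 9.15 to 25.98. These intervals cover counting error only, and at this depth no difference was detectable in either gene. Neither exceeded 0.0547 FPKM in any library.

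Summed over the 4 receptors, the level was 57.8, 54.9 and 59.0 FPKM in miR-200a libraries and 57.2, 47.9 and 46.4 FPKM in vector libraries. EGFR made up 89.2 to 92.8% of it and ERBB2 7.15 to 10.6% over the 6 libraries. The largest EGFR share was that of miR-200a 2, the library with the lowest ERBB2. ERBB3 made up at most 0.118% and ERBB4 at most 0.0512%. These are shares of transcripts per length, not of proteins.

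**Figure D2:**
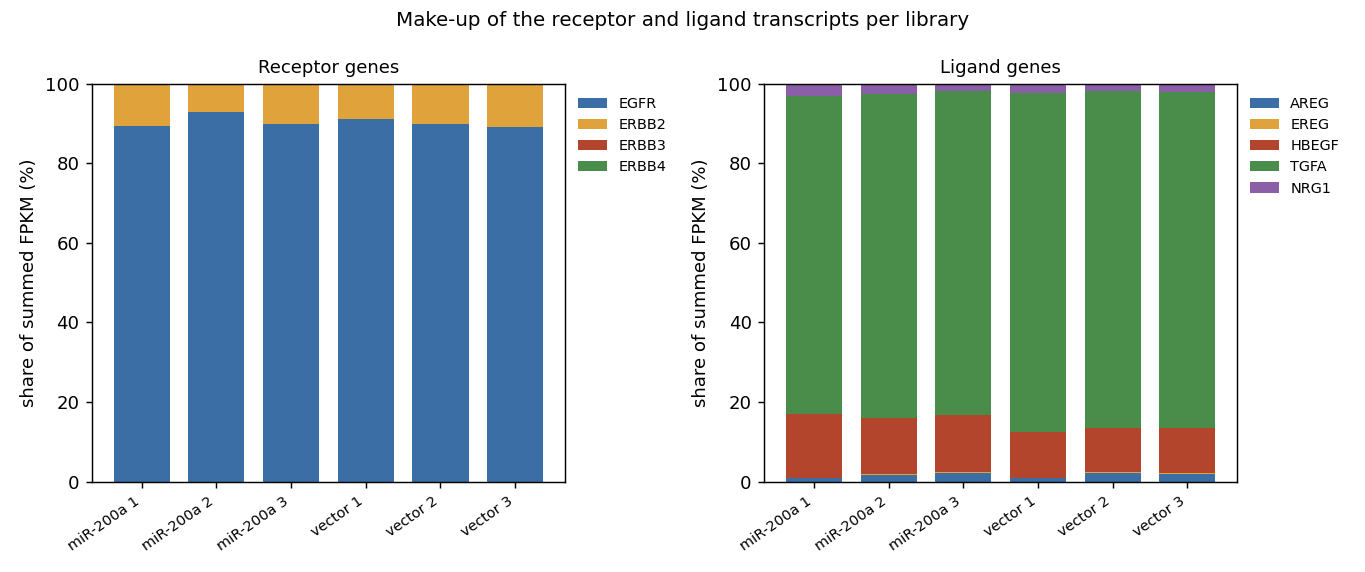
Shares (y axis, percent of summed FPKM) of the 4 receptor genes (left) and the 5 ligand genes (right) in each library, miR-200a libraries first. EGFR holds 89.2 to 92.8% of receptor transcripts and TGFA 80.1 to 85.4% of ligand transcripts, and HBEGF takes a larger share in each miR-200a library than in any vector library.

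ERBIN (ENSG00000112851, chromosome 5, 65926475 to 66082549) had 23.2, 28.2 and 23.8 FPKM in miR-200a libraries 1 to 3, against 29.3, 31.8 and 29.3 FPKM in vector libraries 1 to 3. All miR-200a libraries lay below all vector libraries, with miR-200a 2 only about 1 FPKM under the lowest of them. The means were 25.1 ± 2.73 FPKM with miR-200a and 30.1 ± 1.44 FPKM with the vector (SD, n = 3 each), a ratio of 0.834. The log2 difference was -0.26 (SE 0.09, 95% interval -0.48 to -0.04), with an unadjusted p of 0.0266 and a limma adjusted p of 0.327 over all tested genes. Without miR-200a 2 it was -0.34 (95% interval -0.50 to -0.18, limma adjusted p = 0.0602). Of the tested genes 5.62% had a lower log2 difference than ERBIN.

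HBEGF (ENSG00000113070, chromosome 5, 140332843 to 140346631), the gene of heparin-binding EGF, had 4.78, 3.90 and 4.203 FPKM in miR-200a libraries 1 to 3. In vector libraries 1 to 3 it had 3.45, 3.11 and 3.13 FPKM. Every miR-200a library was above every vector library. The gap between the groups was wider than the range within the vector group but narrower than that within the miR-200a group. The means were 4.30 ± 0.448 FPKM with miR-200a and 3.23 ± 0.186 FPKM with the vector (SD, n = 3 each), a 1.33-fold difference. The log2 difference was 0.32 (SE 0.09, 95% interval 0.11 to 0.53), with an unadjusted p of 0.00774 and a limma adjusted p of 0.241. Without miR-200a 2 it was 0.38 with a limma adjusted p of 0.0669, and without miR-200a 1 it was 0.26 (limma adjusted p = 0.708). With all 6 libraries the HBEGF difference was the largest among the 5 tested genes, and 94.4% of all tested genes had a lower one. The groups rested on 688 reads with miR-200a and 540 with the vector.

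TGFA (ENSG00000163235, chromosome 2, 70447280 to 70554193), the gene of TGF-alpha, had 23.8, 22.8 and 23.8 FPKM in miR-200a libraries 1 to 3 and 25.7, 23.8 and 23.7 FPKM in vector libraries 1 to 3. The groups overlapped. The log2 difference was -0.05 (SE 0.07, 95% interval -0.22 to 0.11, limma adjusted p = 0.730), the narrowest interval of the 5 genes.

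**Figure D3:**
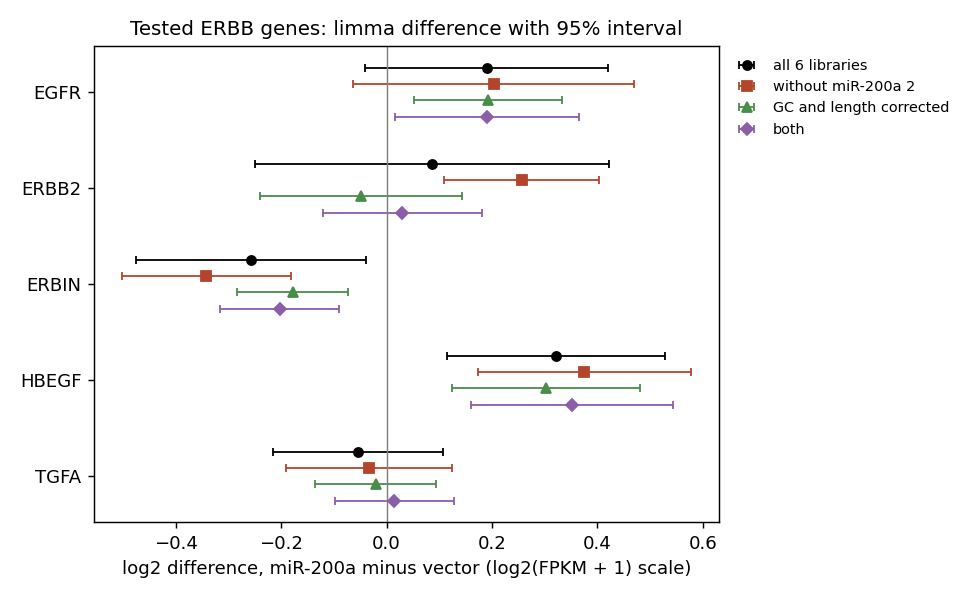
Log2 difference of miR-200a minus vector (x axis, log2(FPKM + 1) scale) for the 5 tested genes, with limma 95% intervals, in 4 settings: all 6 libraries, without miR-200a 2, after correction for GC content and length, and both. ERBB2 is 0.09 with all libraries, 0.26 without miR-200a 2 and -0.05 after the correction, while HBEGF stays between 0.30 and 0.38.

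The other ligand genes were too low to be tested. NRG1, the gene of the neuregulins that bind ERBB3 and ERBB4 (ENSG00000157168, chromosome 8, 31639386 to 32767959), had 0.891, 0.730 and 0.548 FPKM with miR-200a and 0.679, 0.504 and 0.584 FPKM with the vector. The groups overlapped, over 432 reads with miR-200a and 371 with the vector. AREG, the gene of amphiregulin, had 0.233, 0.494 and 0.650 FPKM with miR-200a and 0.259, 0.611 and 0.563 FPKM with the vector, also overlapping. Library 1 was the lowest of each group. EREG, the gene of epiregulin, had 8 reads with miR-200a (95% exact Poisson interval 3.45 to 15.8) and 13 with the vector (6.92 to 22.2).

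Over the 5 ligand genes the summed level was 27.96 to 29.7 FPKM with miR-200a and 28.03 to 30.1 FPKM with the vector. TGFA held 80.1 to 81.5% of it in miR-200a libraries and 84.5 to 85.4% in vector libraries. HBEGF held 13.9 to 16.1% in miR-200a libraries and 11.1 to 11.4% in vector libraries. Neither share overlapped between the groups, and neither was tested. Shares of the same sum are tied to each other, so these are not separate differences. The FPKM of TGFA itself overlapped between the groups.

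Ordered by level, EGFR stood first in both groups and apart from the next gene. ERBIN and TGFA came next, with overlapping ranges in miR-200a libraries (23.2 to 28.2 and 22.8 to 23.8 FPKM) and separate ones in vector libraries (29.3 to 31.8 and 23.7 to 25.7 FPKM). ERBB2 and HBEGF followed, again overlapping in miR-200a libraries (3.93 to 6.07 and 3.90 to 4.78 FPKM) and apart in vector libraries. NRG1 and AREG overlapped in both groups, and ERBB3, EREG and ERBB4 closed the order under 0.1 FPKM.

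GC content moved with the comparison across all tested genes, and the tested receptors and ERBIN lie at different points of that range. The median log2 difference was -0.10 in the 2446 tested genes with the lowest GC content (23.1 to 40.5%), where ERBIN lies at 35.9%. It was 0.16 in the 2446 with the highest (57.0 to 83.3%), where ERBB2 lies. Without miR-200a 2 these medians were -0.17 and 0.26, where ERBIN differed by -0.34 and ERBB2 by 0.26. Whether GC content accounts for the difference of any gene was not tested. EGFR at 47.5% and TGFA at 45.9% lie in the middle group of 5 (44.9 to 50.5%), whose median was -0.03, and HBEGF at 50.9% in the next (50.5 to 57.0%), whose median was 0.06. After each library was corrected for smooth trends in GC content and length, ERBIN differed by -0.18 (limma adjusted p = 0.114), ERBB2 by -0.05 (adjusted p = 0.811), EGFR by 0.19 (adjusted p = 0.177) and HBEGF by 0.30 (adjusted p = 0.115).

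**Figure D4:**
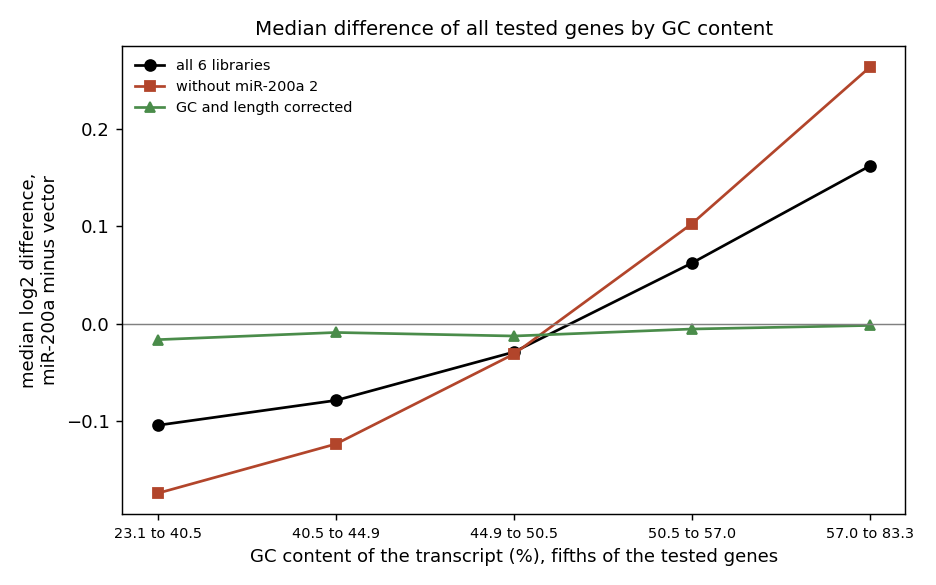
Median log2 difference of miR-200a minus vector (y axis, log2(FPKM + 1) scale) in 5 equal groups of all tested genes by GC content of the longest transcript (x axis, percent). The medians run from -0.10 to 0.16 with all libraries and from -0.17 to 0.26 without miR-200a 2, and lie near 0 after the correction.

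The genes whose levels over the 6 libraries followed a member most closely were found by Pearson correlation of log2(FPKM + 1), as a description only, since all values come from the same 6 libraries. For EGFR they were LRRC42 (r = 0.994), TNFRSF10D (r = 0.991), which encodes a decoy receptor for TRAIL, and RNF24 (r = 0.990). LRRC42 had 20.1, 19.5 and 19.98 FPKM with miR-200a and 20.2, 17.03 and 16.5 FPKM with the vector, with vector 2 and 3 low as in EGFR. For ERBIN they were RIF1 (r = 0.998), which regulates replication timing and DNA repair, the Wnt receptor gene FZD6 (r = 0.996) and BBX (r = 0.996). RIF1 had 8.61, 10.01 and 8.64 FPKM with miR-200a and 10.3, 11.2 and 10.4 FPKM with the vector, so miR-200a 2 was again the highest of its group. RIF1, FZD6 and BBX have GC contents of 37.3, 38.4 and 39.3%, in the same group of lowest GC content as ERBIN. LRRC42, TNFRSF10D and RNF24 have 53.0, 47.1 and 48.5%, and the first of them lies in a higher group than EGFR.

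On the genome, AREG and EREG lie on chromosome 4 within 1000000 bases of CXC chemokine genes that fell with miR-200a. The threshold was passed by 0.401% of all tested genes. Of the 5 tested genes in that window around AREG, 2 passed it. They were CXCL8 (4.94 ± 0.445 FPKM with miR-200a and 14.01 ± 1.71 FPKM with the vector, limma adjusted p = 0.00637) and CXCL1 (15.1 ± 1.11 FPKM with miR-200a and 30.4 ± 1.74 FPKM with the vector, adjusted p = 0.00942, SD, n = 3 each). With 1 library left out, CXCL8 kept its call (adjusted p at most 0.0484), and CXCL1 lost it without miR-200a 3, vector 2 or vector 3 (up to 0.0802). AREG averaged 0.459 ± 0.210 FPKM with miR-200a and 0.478 ± 0.191 FPKM with the vector, and its groups overlapped. Near ERBIN, 1 of 12 tested neighbours passed, the metalloproteinase gene ADAMTS6, at 15.1 ± 1.26 FPKM with miR-200a and 23.9 ± 1.39 FPKM with the vector (limma adjusted p = 0.0382). That call held with 1 library left out only when the library was miR-200a 2, and the adjusted p was otherwise up to 0.206 (limma). No tested neighbour of EGFR (11), ERBB2 (39), HBEGF (33) or TGFA (18) passed.

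The rest of the pathway was read from 6 lists of 84 genes, of which 73 were tested. None passed the threshold in either direction with limma, where 0.401% of all tested genes did, and 0 passed with voom on recovered reads. An unadjusted p under 0.05 was found for 13 of the 73, where 13.3% of all tested genes had one. Among other EGF-family ligands only NRG2 was tested, at 1.34 FPKM with miR-200a and 1.06 FPKM with the vector (log2 difference 0.18, limma adjusted p = 0.603). Its difference was 0.31 without miR-200a 2 and 0.28 without vector 1 (limma adjusted p = 0.185 and 0.448). EGF and BTC, which bind EGFR, stayed under 0.2 FPKM in every library, and NRG3 was listed at 0.

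The machinery that frees the ligands was expressed, with all 5 genes tested and a median log2 difference of -0.01, the same as over all tested genes to 2 decimals. ADAM17, the main protease that cuts HB-EGF, amphiregulin and TGF-alpha free, stood at 6.16 FPKM with miR-200a and 6.83 FPKM with the vector (limma adjusted p = 0.468). Its groups did not overlap, by a narrow margin (at most 6.547 FPKM with miR-200a, at least 6.565 FPKM with the vector). The genes of its iRhom partners had higher means with miR-200a, RHBDF1 at 5.78 FPKM against 4.24 FPKM with the vector and RHBDF2 at 4.75 FPKM against 3.38 FPKM with the vector, but their groups overlapped (adjusted p = 0.402 and 0.392). Without miR-200a 2 neither gene overlapped, and the log2 differences were 0.52 for RHBDF1 and 0.56 for RHBDF2 (limma adjusted p = 0.0728 and 0.0684). The RHBDF2 groups also did not overlap without vector 1. Without vector 1 the log2 differences were 0.45 for RHBDF1 and 0.48 for RHBDF2 (limma adjusted p = 0.376 and 0.364). NRDC, the gene of nardilysin, which binds HB-EGF and enhances its shedding, stood at 40.7 FPKM with miR-200a and 47.7 FPKM with the vector without overlap (adjusted p = 0.326). Of the 5 genes 2 were lower and 0 higher without overlap, where 10.7 and 8.29% of all tested genes were.

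Of 17 negative regulators of the receptors 16 were tested, with a median log2 difference of -0.07 and 5 genes lower and 0 higher without overlap, where 10.7 and 8.29% of all tested genes were. The 5 were PTPN2, CBL, SOCS5, ERRFI1 and SPRY2. PTPN2, a phosphatase that acts on EGFR, stood at 2.66 FPKM with miR-200a and 3.46 FPKM with the vector (log2 difference -0.29, limma adjusted p = 0.292). CBL, the ubiquitin ligase that sends EGFR to degradation, stood at 14.2 FPKM with miR-200a and 16.9 FPKM with the vector (adjusted p = 0.313), and SOCS5 at 5.53 FPKM with miR-200a and 6.63 FPKM with the vector (adjusted p = 0.329). A match to the miR-200a-3p seed stood in the 3' UTR of 9 of the 17 genes, where 23.3% of all annotated 3' UTRs had one. The length of the 3' UTRs, 8368 bases for CBL, was not taken into account. Of these 9 genes 3 were lower without overlap while 6 overlapped. ERRFI1 and SPRY2, also lower without overlap, had no match, and a link between matches and levels was not tested. ERRFI1, the gene of the EGFR inhibitor MIG6, stood at 47.8 FPKM with miR-200a and 53.5 FPKM with the vector (adjusted p = 0.376).

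Of 29 genes that relay the signal 28 were tested, with a median log2 difference of -0.03. PIK3R1, the regulatory subunit of PI3-kinase, stood at 3.62 FPKM with miR-200a and 4.52 FPKM with the vector (limma adjusted p = 0.301). The RAS exchange factor gene SOS2 stood at 5.82 FPKM with miR-200a and 7.01 FPKM with the vector (adjusted p = 0.318). The ERK kinase gene MAP2K1 stood at 19.5 FPKM with miR-200a and 17.1 FPKM with the vector (adjusted p = 0.330), and it was the 1 gene of the list that was higher without overlap, against 4 that were lower, where 8.29% of all tested genes were higher and 10.7% lower without overlap.

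Genes that ERK signalling is known to induce gave a mixed picture, with 19 of 20 tested and a median log2 difference of -0.03. DUSP4, a phosphatase that switches off ERK in the nucleus, stood at 17.4 FPKM with miR-200a and 12.5 FPKM with the vector (log2 difference 0.45, limma adjusted p = 0.165). It passed the threshold in 2 other settings, without miR-200a 2 (adjusted p = 0.0480) and with voom on recovered reads at a filter of 0.2 FPKM (0.49, adjusted p = 0.0459). DUSP4 did not pass without vector 1 (limma adjusted p = 0.302). Its relative DUSP6, which acts on ERK in the cytoplasm, stood at 14.9 FPKM with miR-200a and 17.2 FPKM with the vector (adjusted p = 0.340), and the immediate early gene FOS at 2.78 FPKM with miR-200a and 3.67 FPKM with the vector (adjusted p = 0.285). Of the other LAP proteins and partners of ERBIN, 6 of 9 were tested. ARVCF, a catenin, stood at 2.15 FPKM with miR-200a and 1.43 FPKM with the vector without overlap (adjusted p = 0.316). SCRIB, a LAP polarity protein, stood at 29.7 FPKM with miR-200a and 24.0 FPKM with the vector (log2 difference 0.28, limma adjusted p = 0.518). Its difference was 0.48 without miR-200a 2 (adjusted p = 0.0741) and 0.22 without vector 1 (adjusted p = 0.598). DST stood at 14.2 FPKM with miR-200a and 15.0 FPKM with the vector (log2 difference -0.07, adjusted p = 0.740), and its difference was -0.10 without miR-200a 2 and 0.0033 without vector 1.

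**Figure D5:**
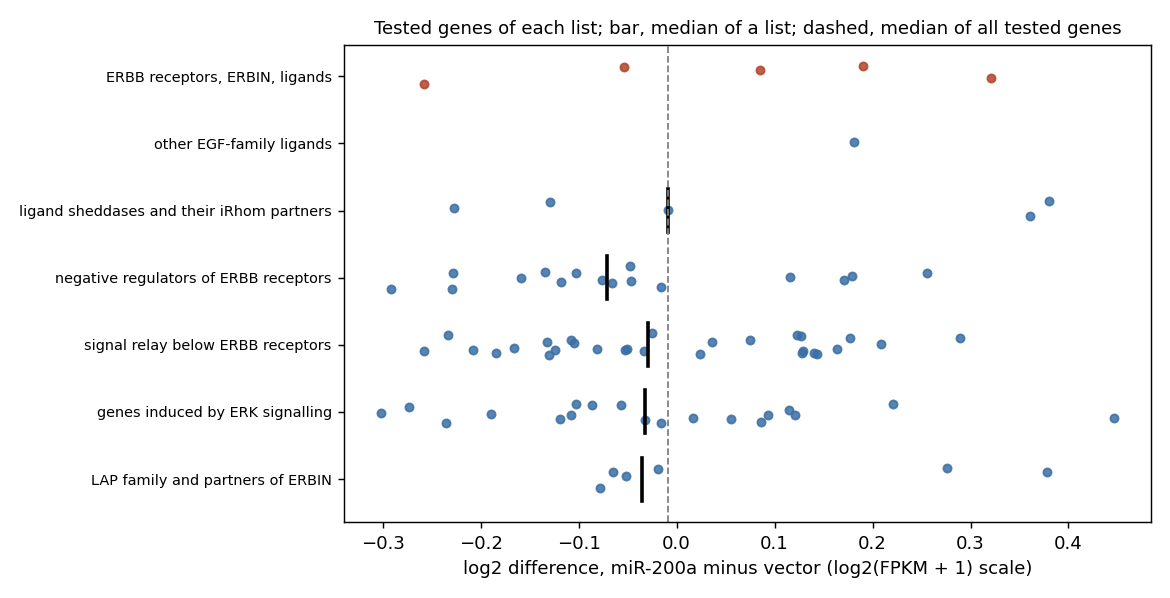
Log2 difference of miR-200a minus vector (x axis, log2(FPKM + 1) scale) of each tested gene (points, spread vertically at random) in the set described here (red) and in the 6 pathway lists (blue), with each list's median as a bar. No gene shown passed the threshold, and the medians of the lists with more than 1 tested gene lie between -0.07 and -0.01.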

How the data were processed

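Gene-level FPKM values were deposited by the authors for 6 libraries, 3 per group. No source used here names the aligner, the counter or the strand setting. Per the submitters' processing notes the builds are GRCm38 and mm10 of the mouse, but all 58735 gene starts and ends equal the human GENCODE 29 annotation, so coordinates are on GRCh38. The deposited gene length was used to recover reads.

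Genes with at least 1 FPKM in at least 3 libraries went into limma 3.58.1 (R 4.3.3) on log2(FPKM + 1) (empirical Bayes with trend, group as the only term, two-sided, Benjamini-Hochberg over all tested genes). Differences on this scale understate changes of low genes. GC content was taken from each gene's longest transcript. The labels do not say that replicate numbers pair the libraries, so the main fit used no pairing. Same-numbered libraries did not all deviate together, but with 3 libraries per group this cannot exclude a pairing.

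The genes and lists were chosen with earlier results of these data known. Named were all 10 genes, up to 3 genes per pathway list with the smallest p, and the 3 genes most like EGFR and ERBIN. The rule also covered the cell type markers, of which not all are named. ADAM17, ERRFI1, SPRY2, EGF, BTC, NRG3, CXCL8, CXCL1 and ADAMTS6 are named outside this rule, after a look at their values.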

Additional observations from a re-analysis of the deposited data

How the results depend on the processing

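None of the 5 tested genes passed the threshold in any of the 18 alternatives run, and EGFR, ERBIN and HBEGF kept their direction in all of them. EGFR ranged from 0.13 to 0.29, ERBIN from -0.34 to -0.18 and HBEGF from 0.26 to 0.42 on the log2 scale. Their limma adjusted p-values ran from 0.177 to 0.841, from 0.0602 to 0.808 and from 0.0669 to 0.708. ERBB2 was -0.0486 after the GC and length correction, with and without the replicate block, and ranged from -0.00462 to 0.26 with 1 library left out. TGFA ranged from -0.07 to -0.02 with 1 library left out and was 0.0144 with the correction and without miR-200a 2. NRG1, below the filter, was 0.28 with voom on recovered reads at a filter of 0.2 FPKM. The cause of these changes was not tested.

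Over all genes the calls numbered 49 (35 higher, 14 lower). They numbered 5 without a filter (4 and 1), 217 with the GC and length correction (136 and 81), 116 with voom on recovered reads (84 and 32) and 80 with the correction and without miR-200a 2, of which 30 were lower. With 1 library left out they ranged from 8 to 225, with 4 to 160 higher and 2 to 65 lower. The lower calls numbered 8 at a filter of 0.2 FPKM and 9 with TPM scaling. The pathway lists had 0 to 1 calls with 1 library left out, and 1 with voom at a filter of 0.2 FPKM (DUSP4 in each case). The replicate block changed no call among the 10 genes and gave 69 calls in all, though the numbers are not shown to pair libraries (correlations of deviations 0.143, 0.367 and -0.006). voom and the correction without miR-200a 2 were added after seeing the data. edgeR and DESeq2 on recovered reads were planned and not run.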
